A study of Mus musculus with 117 samples.

Results

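The genes described here are 10 that encode plasma proteins of blood clotting and clot removal: Fga, Fgb, Fgg, F2, F5, F7, F10, Proc, Plg and Serpinc1. They were taken by name from 21627 protein-coding genes, by a rule that uses no chromatin value, and each was read over its GRCm38 span with 2 kb added to each side. The choice of names was made with earlier results of these data known, so it was not blind to them. These windows cover 1326 of the 5494325 bins of 200 bp that lie in such windows of protein-coding genes, and 13168874 bins make up chromosomes 1 to 19 and X. The windows of the neighbouring genes F7 and F10 share bins, which were counted once in pooled values.

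The samples were hepatocytes, the cells that make most plasma proteins, taken from livers of 12-week-old females. Of the 9 inbred strains, 6 are classical laboratory strains (NZO/HlLtJ, NOD/ShiLtJ, C57BL/6J, DBA/2J, 129S1/SvImJ and A/J) and 3 are wild-derived (WSB/EiJ, PWK/PhJ and CAST/EiJ). No treatment and no engineered allele is named for any strain. Each strain has chromatin immunoprecipitation sequencing (ChIP-seq) libraries of H3K4me1, H3K4me3, H3K27ac and H3K27me3 from 3 mice and 1 input library, 117 libraries in all. The libraries of a strain enter 1 segmentation, in which each 200-bp bin carries 1 of 14 state numbers. A strain therefore gives 1 value, every SD below is over the 9 strains, and the spread between mice of a strain was not analysed here. The states are used as numbers only, no mark is assigned to a state, and the sequencing depth is unknown. The label of the cells was checked on marker genes: 7 of 7 hepatocyte genes, albumin among them, held state 3 somewhere in their windows in all 9 strains, against 0 of 6 endothelial, 0 of 6 Kupffer cell and 0 of 5 bile duct genes, 1 of 5 stellate cell and 1 of 4 lymphocyte genes, and 45.1% of all genes. The markers of other cells were not all free of these states: the endothelial gene Lyve1 had 53.3% ± 4.18 of its bins in states 1 to 3, near the 53.0% ± 12.6 of the hepatocyte gene Cps1. State 3 lay in the windows of Pecam1 in 5 strains and of Stab2 and Sox9 in 6. The part of other cell types in the segmentations was not tested.

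Blood clots when a cascade of proteases ends in thrombin, which cuts fibrinogen into fibrin. Most of these proteins are made by hepatocytes and secreted into plasma as inactive precursors, and antithrombin and protein C hold the cascade back while plasmin dissolves the clot. Active genes usually carry H3K4me3 at their start and H3K27ac and H3K4me1 at promoters and enhancers, and H3K27me3 marks genes kept silent by Polycomb proteins.

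The promoter table of RefSeq, on build GRCm38.p6, gives a strand and a start for 8 of the 10 genes. The 250 bases before the start are printed for 5 of them, because the 3 fibrinogen genes had state 3 from the start onwards in every strain while F7 and Serpinc1 did not. Each is written 5′ to 3′ on the strand of its gene, and capitals mark matches, on either strand, to the motifs named after the sequences.
Fga (chr3:83025903-83026152, plus strand): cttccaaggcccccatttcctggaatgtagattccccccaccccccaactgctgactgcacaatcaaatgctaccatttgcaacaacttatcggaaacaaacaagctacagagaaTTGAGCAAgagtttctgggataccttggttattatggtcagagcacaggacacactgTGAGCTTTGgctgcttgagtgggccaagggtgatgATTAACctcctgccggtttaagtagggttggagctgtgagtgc
Fgb (chr3:83049864-83050113, minus strand): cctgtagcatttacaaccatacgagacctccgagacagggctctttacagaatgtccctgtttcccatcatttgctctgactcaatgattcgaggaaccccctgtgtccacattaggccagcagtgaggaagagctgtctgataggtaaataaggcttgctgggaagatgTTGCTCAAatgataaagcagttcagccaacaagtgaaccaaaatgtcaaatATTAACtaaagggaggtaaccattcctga
Fgg (chr3:83007474-83007723, plus strand): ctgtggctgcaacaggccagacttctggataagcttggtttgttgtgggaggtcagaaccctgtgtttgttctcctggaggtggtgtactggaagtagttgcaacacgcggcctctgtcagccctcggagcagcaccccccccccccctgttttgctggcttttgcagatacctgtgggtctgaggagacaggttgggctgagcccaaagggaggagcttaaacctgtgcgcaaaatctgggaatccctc
F7 (chr8:13025784-13026033, plus strand): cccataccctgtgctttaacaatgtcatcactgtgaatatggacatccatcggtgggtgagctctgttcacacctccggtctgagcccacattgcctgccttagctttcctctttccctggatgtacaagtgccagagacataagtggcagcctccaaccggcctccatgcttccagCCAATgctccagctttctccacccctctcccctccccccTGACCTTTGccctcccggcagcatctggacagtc
Serpinc1 (chr1:160978333-160978582, plus strand): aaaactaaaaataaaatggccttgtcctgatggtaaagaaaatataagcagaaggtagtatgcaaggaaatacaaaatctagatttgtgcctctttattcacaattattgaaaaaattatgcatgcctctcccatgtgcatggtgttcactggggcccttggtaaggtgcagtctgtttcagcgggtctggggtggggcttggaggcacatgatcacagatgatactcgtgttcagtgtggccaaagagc
Each of the 8 promoter stretches held 2 to 4 CpG dinucleotides, against a median of 10 and an interquartile range of 3 to 19 over the 17273 promoters of protein-coding genes. GTTAAT, part of the site of the hepatocyte factor HNF1, lay in 2 of the 8, Fga and Fgb, and in 5.95% of all promoters. CAAAGNNCA, the core of an HNF4 site, lay in Fga and F7 and in 5.01% of all. TTGCNNAA, a C/EBP site, lay in Fga and Fgb and in 9.24% of all. CCAAT was found in F7 alone of the 8 and in 36.8% of all, and TATAAA in 0 of the 8 and in 12.5% of all. In the capitals of Fga the C/EBP match lies 135 to 128 bases, the HNF4 match 78 to 70 bases and the HNF1 match 43 to 38 bases before the start. The motifs do not overlap each other there, and a match is a description of letters, not of bound protein.

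States 1, 2 and 3 filled most of the windows of 7 of the 10 genes on average, F7 among them at 54.9%, which was 49.7% without the added 2 kb. The median over the 10 genes of the share of bins in these states was 80.8%, against 5.14% over all protein-coding genes, and 2.42% of all genes lay above the members' median. State 14, the most widespread state, had a median of 0.457% over the members and 62.0% over all genes. State 3 lay in the windows of 10 of the 10 genes in all 9 strains, a property of 45.1% of protein-coding genes. F7 counts here only through the bin chr8:13037801-13038000, which belongs to the state 3 block of its neighbour F10 and is the only bin of the F7 window in state 3 in all strains. In 6 of the 10 genes, Fga, Fgb, Fgg, F10, Plg and Serpinc1, states 1 to 3 held more than 50% of the window in all 9 strains, where 5.38% of protein-coding genes did so. The median length of the members, 17907 bp, was near that of all genes, 17330 bp.

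Pooled over the 1326 bins, the share of state 1 was 34.3% ± 3.27, that of state 2 was 22.6% ± 3.66 and that of state 3 was 7.11% ± 1.08 (SD, n = 9). State 4 held 19.7% ± 3.48, state 14 held 10.6% ± 3.80 and state 6 held 4.29% ± 1.71. States 8 and 9 each stayed under 1% on average, at 0.947% and 0.486%. States 5, 7, 10, 11, 12 and 13 were found in 0 bins of any member in any strain. Windows without state 13 in any strain made up 51.3% of all protein-coding genes, so the 10 of 10 members stand beside a common property.

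**Figure D1:**
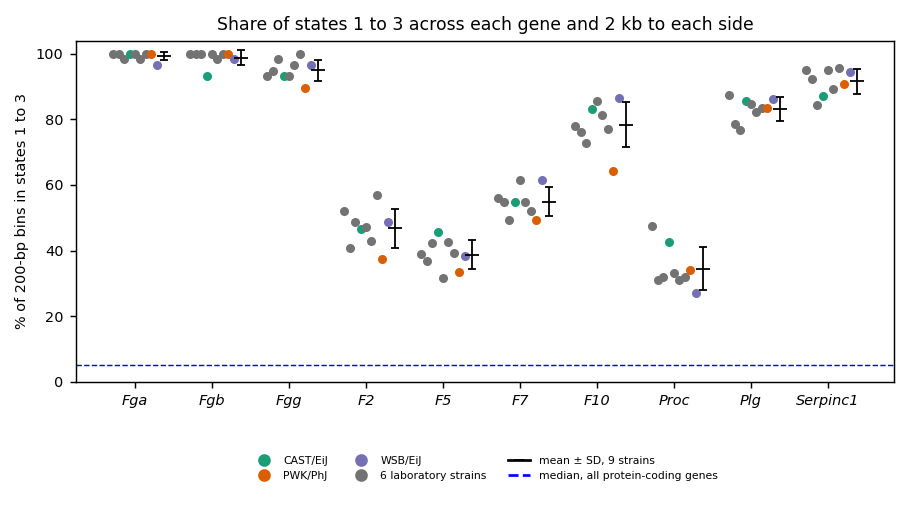
Share of 200-bp bins in states 1 to 3 (y axis, percent) in each gene's window, 1 point per strain in alphabetical order from left to right, with the mean and SD of the 9 strains at the right of each gene and the median of all protein-coding genes as a dashed line. Fga, Fgb and Fgg sit at 89.7% or higher in every strain, Proc and F5 lie lowest, and wild-derived and laboratory strains overlap in every gene.

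The 3 fibrinogen genes, which encode the Aα, Bβ and γ chains of fibrinogen, lie side by side on chromosome 3 and were almost wholly in states 1 to 3. Fga (chr3:83026153-83033627, plus strand) had 96.6% of its 59 bins in these states in the lowest strain, WSB/EiJ, a median of 100% and a highest value of 100%. Fgb (chr3:83042246-83049863, minus strand) had 93.2% in CAST/EiJ, the lowest strain, a median of 100% and a highest value of 100% over its 59 bins. Fgg (chr3:83007724-83015056, plus strand) had 89.7% in PWK/PhJ, a median of 94.8% and 100% in NZO/HlLtJ over 58 bins. Thus 1 or a few bins separate the strains at Fga and Fgb, and Fgg varies a little more. State 14 was at 0 in all 3 windows in all 9 strains.

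At each fibrinogen gene a block of state 3 began at the bin that holds the start, or at Fgg in NZO/HlLtJ in the bin before it, and ran into the gene. In Fga the bins of chr3:83026001-83027800 were in state 3 in all 9 strains, and the block measured 1800 bp in the shortest strain, 2200 bp in the median and 2400 bp in the longest. Its upstream edge was the same bin edge in 9 of 9 strains. In Fgb the stretch shared by all strains was chr3:83048201-83050000, the block measured 1800, 2000 and 2200 bp (shortest, median, longest), and the upstream edge again coincided in 9 of 9 strains. The Fgg block was longer, 2400 bp at the shortest, 3000 bp in the median and 4800 bp in NZO/HlLtJ, and its edge at 83007601 was shared by 8 of 9 strains. The strains thus differ in how far state 3 extends into these genes and hardly in where it begins.

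The flank on the other side of these starts was uniform. In the 5 bins before the start, all 45 bins (5 bins in 9 strains) were in state 1 at Fga, Fgb and also F2, and 44 of 45 at Fgg, where NZO/HlLtJ had 1 bin of state 3. In the start bin and the 4 after it, state 3 held 45 of 45 bins at each of Fga, Fgb, Fgg and F2. State 3 lay in the start bin in all 9 strains in 5 of the 8 genes with a listed start, those 4 and F5, where 32.1% of 17273 protein-coding genes had it. Of these 5 genes, 3 had no state 3 in the 5 bins before the start in any strain, Fga, Fgb and F2, against 17.8% of the 5543 genes with state 3 in the start bin. Averaged over the 5 genes, state 3 held 0.889% of the bins before and 96.0% of the bins from the start on. The means over the 5543 genes were 24.1% and 61.6%. Both sets were chosen for state 3 in the start bin, which is 1 of the 5 bins from the start on. Part of the difference between the sides is therefore set by the choice.

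**Figure D2:**
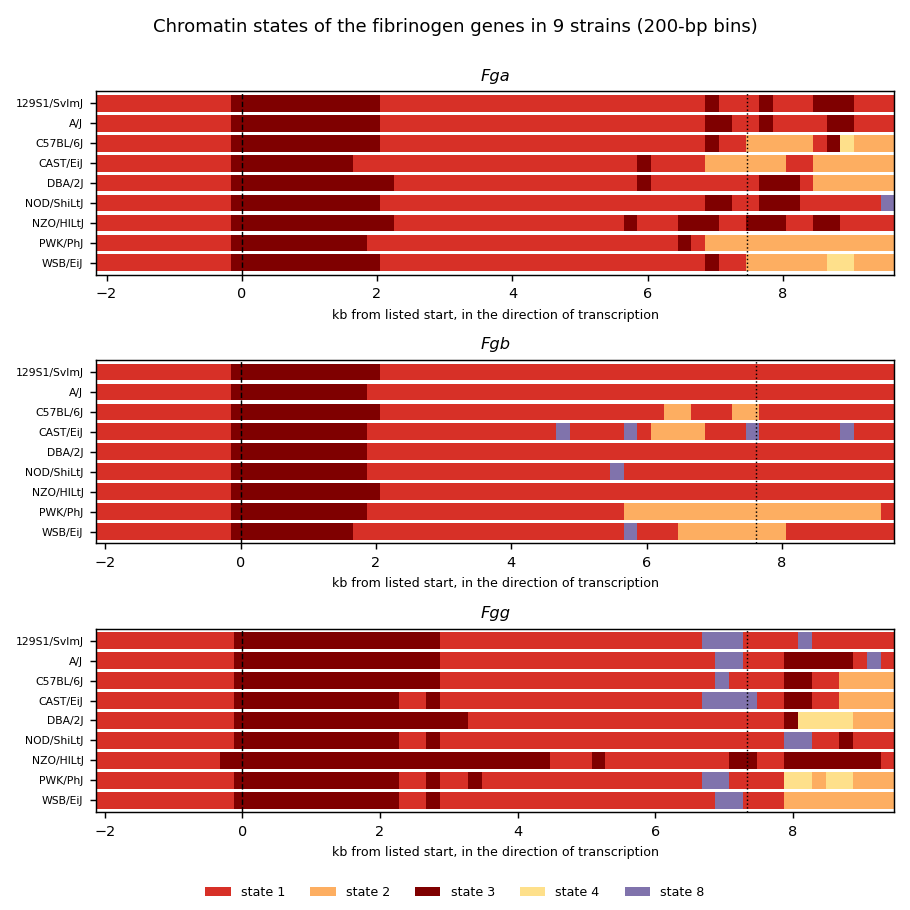
State of every 200-bp bin (colour) in the windows of Fga, Fgb and Fgg, 1 line per strain, against distance from the listed start in kb in the direction of transcription, where the dashed line is the start and the dotted line the end of the gene. State 3 begins at the start bin in all 9 strains in Fga and Fgb and in 8 strains in Fgg, and is followed by state 1. At Fgg it begins in the bin before in NZO/HlLtJ, which has the longest block, at 4800 bp. Differences between strains gather toward and past the gene end in Fga and Fgb and also lie in the body of Fgg.

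The strains parted near and past the ends of Fga and Fgb, and at Fgg in the gene body as well. Fga held state 2 in none of its bins in 129S1/SvImJ, A/J, NOD/ShiLtJ and NZO/HlLtJ, and in 10.2% (DBA/2J) to 23.7% (PWK/PhJ) of bins in the other 5 strains. In Fgb the lowest and the median share of state 2 were 0%, and PWK/PhJ reached 32.2%. The map of the fibrinogen genes shows these state 2 bins near and after the gene end. In Fgg the share of state 3 was 22.4% in WSB/EiJ, the lowest strain, and 58.6% in NZO/HlLtJ, with the other 7 strains between 24.1% and 34.5%. NZO/HlLtJ accordingly stands apart at Fgg, and PWK/PhJ at Fgb. Part of the Fgg window, including the start, also lies in the long non-coding RNA gene Gm30097, and the states there cannot be assigned to 1 of the pair.

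F2 encodes prothrombin, the precursor of thrombin, and F5 encodes factor V, the cofactor that speeds the making of thrombin. In F2 (chr2:91612397-91636457, minus strand, 142 bins) states 1 to 3 held 37.3% in PWK/PhJ, 47.2% in the median strain and 57.04% in NZO/HlLtJ. In F5 (chr1:164151835-164220277, plus strand, 363 bins) they held 31.7% in DBA/2J, 38.8% in the median and 45.7% in CAST/EiJ. In both genes the first part was mostly in states 1 to 3. States 4 and 14 held most of the later part of F2, while in F5 they alternated with further stretches of states 1 and 2, some of them near the gene end. At F2 a state 3 block of 1400 to 1600 bp ended at the same upstream edge in 9 of 9 strains, and chr2:91635201-91636600 was in state 3 in all of them. At F5 the block measured 600 bp in DBA/2J, 800 bp in the median and 1400 bp in 129S1/SvImJ, with 3 bins, chr1:164151801-164152400, in state 3 in all 9 strains.

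Counted from the start, the first bin of state 4 or 14 came at a nearly fixed distance in F5, between 12.6 and 13 kb in all 9 strains. In F2 it came at 12.8 to 14.4 kb in 7 strains, and at 6.0 kb in CAST/EiJ and 7.0 kb in PWK/PhJ. Of those 2 wild-derived strains, CAST/EiJ had a short run of state 4 inside the F2 stretch and PWK/PhJ a single bin with state 2 on both sides. The other 7, WSB/EiJ at 14.4 kb among them, had neither. The F5 window varied widely in states 4 and 14. State 14 held 4.41% of the F5 window in 129S1/SvImJ, 19.6% in the median strain and 36.9% in DBA/2J, and state 4 held 54.8% in 129S1/SvImJ and 28.9% in DBA/2J. The F2 window ends in the gene Ckap5, and its share of state 14 ran from 13.4% in WSB/EiJ to 33.1% in DBA/2J. The F5 window includes bins of the platelet adhesion gene Selp, the non-coding gene Gm16548 and the microRNA gene Gm51287.

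F7 encodes factor VII, the protease that starts clotting with tissue factor, and F10 encodes factor X, the protease that cuts prothrombin. They are neighbours on chromosome 8, both on the plus strand. In F7 (chr8:13025506-13035809, 73 bins) states 1 to 3 held 49.3% in C57BL/6J and PWK/PhJ, 54.8% in the median and 61.6% in DBA/2J and WSB/EiJ. In F10 (chr8:13037308-13056676, 118 bins) they held 64.4% in PWK/PhJ, 78.0% in the median and 86.4% in WSB/EiJ.

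State 3 at the F7 start depended on the strain. The 11 bins within 1 kb of the start that RefSeq lists, which lies inside the annotated span, held state 3 in 27.3% of bins in CAST/EiJ, 18.2% in DBA/2J and NZO/HlLtJ, 9.09% in PWK/PhJ and 0 in the other 5 strains. The start bin itself was in state 3 in those 4 strains and in state 1 in the other 5. The 4 strains mix wild-derived and laboratory strains, and WSB/EiJ is among the 5 without. In F10 the start bin was in state 1 in all 9 strains, and a block of state 3 began 493 bp inside the gene in 9 of 9 strains. That block measured 200 bp in C57BL/6J, 800 bp in the median and 1200 bp in NZO/HlLtJ, and its first bin, chr8:13037801-13038000, was in state 3 in every strain. RefSeq lists 2 transcripts for each of the genes, and 1 start per gene was used.

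The body of F7 set NOD/ShiLtJ apart from the other strains. In NOD/ShiLtJ state 9 held 28.8% of the F7 window, against 2.74% in A/J and 0 in the other 7 strains. State 4 was lowest in that strain, at 15.1%, and lay between 35.6% and 50.7% in the other 8. The first state 4 or 14 bin of F7 came at 2.6 kb in PWK/PhJ, 3.2 kb in the median and 7.0 kb in NOD/ShiLtJ. The map of F7 places state 9 of NOD/ShiLtJ mostly where the other strains have state 4. State 9 was rare in F10, at 0.847% in NOD/ShiLtJ and 0 in the other strains.

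**Figure D3:**
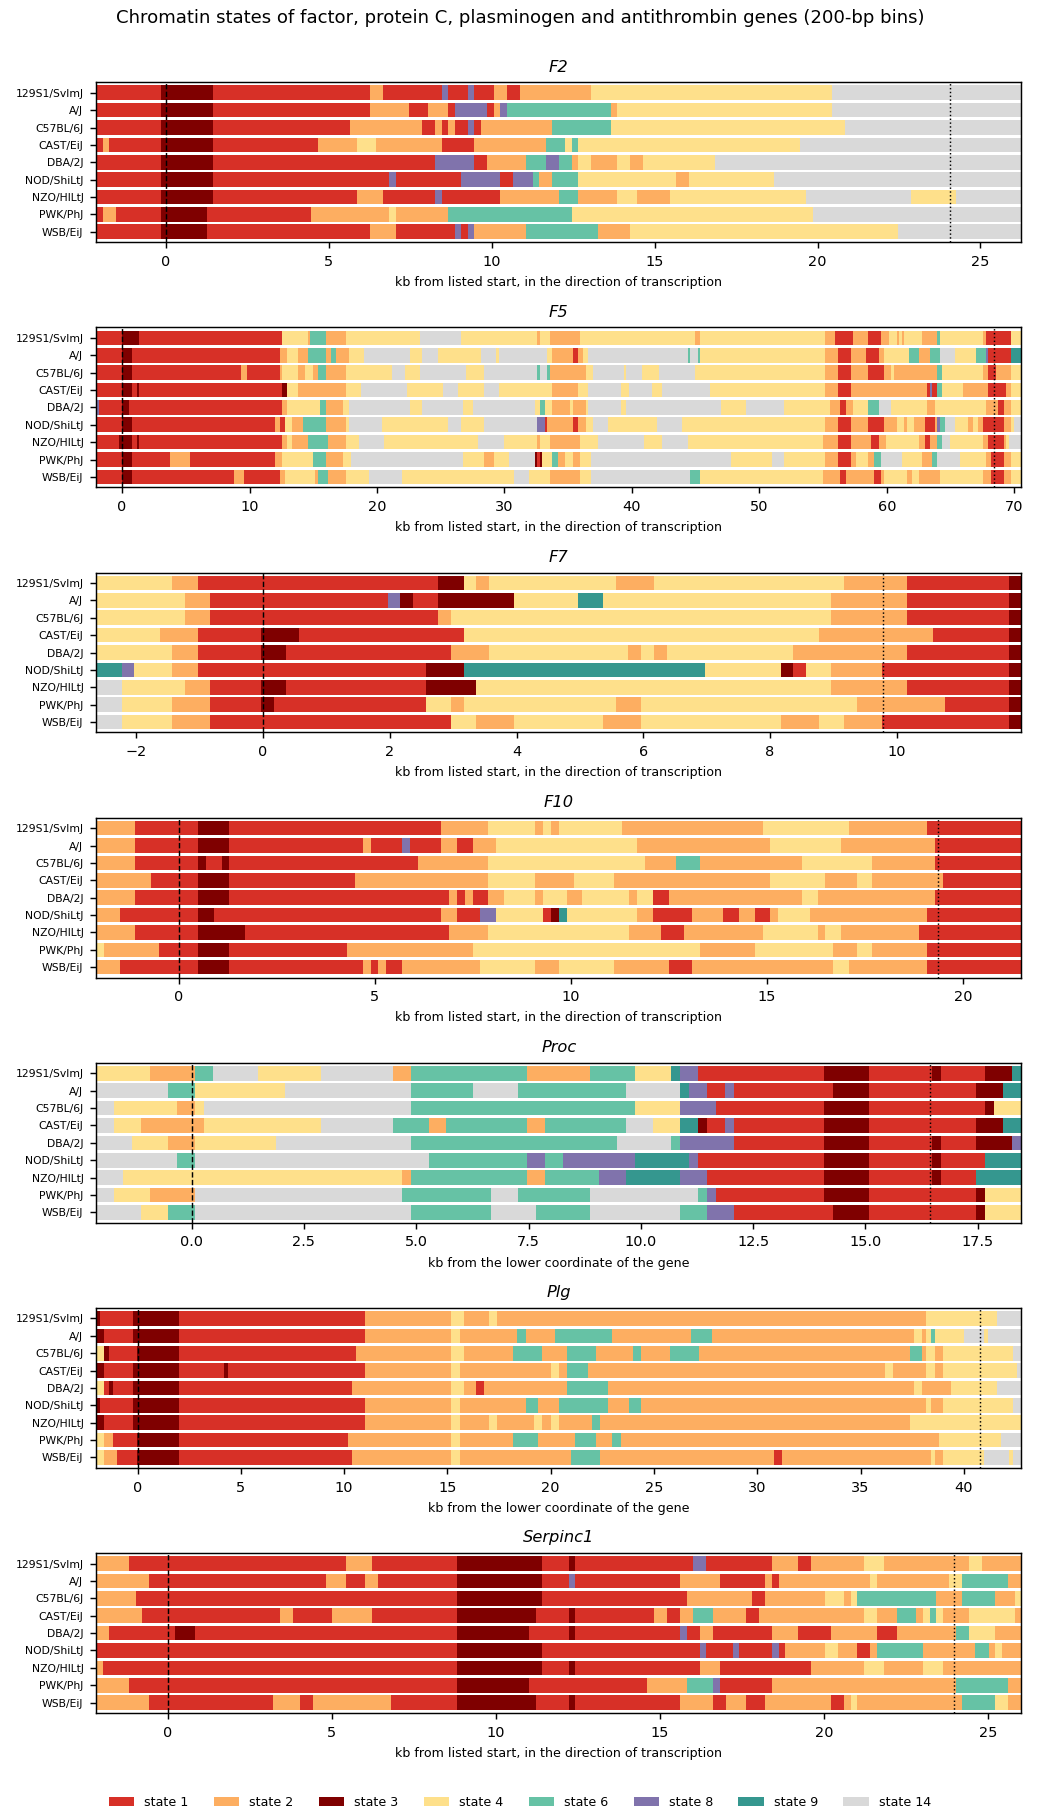
State of every 200-bp bin (colour) in the windows of F2, F5, F7, F10, Proc, Plg and Serpinc1, 1 line per strain, against distance in kb from the listed start, or from the lower coordinate of the gene for Proc and Plg, which have no listed strand; dashed and dotted lines mark the start (or lower coordinate) and the other end. State 9 fills part of F7 in NOD/ShiLtJ, F5 meets its first bin of state 4 or 14 at 12.6 to 13 kb and returns to states 1 and 2 further on, and Serpinc1 has its main state 3 block 8818 bp inside the gene in all 9 strains.

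Serpinc1 encodes antithrombin, the serpin that blocks thrombin and factor Xa, and Proc encodes protein C, the protease that inactivates factors Va and VIIIa. The 2 anticoagulant genes lay at opposite sides of the range. In Serpinc1 (chr1:160978583-161002543, plus strand, 141 bins) states 1 to 3 held 84.4% in C57BL/6J, 92.2% in the median and 95.7% in NZO/HlLtJ. In Proc (span 32123126 to 32139570 of chromosome 18, 103 bins) they held 27.2% in WSB/EiJ, 32.0% in the median and 47.6% in 129S1/SvImJ.

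The main state 3 block of Serpinc1 was far from the listed start. It began at 160987401, 8818 bp inside the gene, in 9 of 9 strains and measured 2200 to 2600 bp, and chr1:160987401-160989600 was in state 3 in all of them. Within 1 kb of the listed start only DBA/2J had state 3, in 27.3% of bins, and the start bin was in state 1 in all 9 strains. RefSeq lists 4 transcripts of Serpinc1, of which 1 start was used, and the starts of the others were not analysed here. The Serpinc1 window includes bins of the genes LOC115487665 and Zbtb37, and the states of shared bins cannot be assigned to 1 gene. The first bin of state 4 or 14 came 20.2 to 24.6 kb after the listed start in 8 strains and was not met in PWK/PhJ.

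In Proc a state 3 block of 800 to 1000 bp ended at 32138200 in 9 of 9 strains, 1370 bp inside the upper end of the gene, and bins 32137401 to 32138200 were in state 3 in all strains. The share of state 1 was steady, from 20.4% in DBA/2J to 25.2% in 129S1/SvImJ and NOD/ShiLtJ. State 6 took 20.2% ± 2.90 of the window, more than in any other member (0 to 5.63% on average). State 14 ran from 2.91% in NZO/HlLtJ through 24.3% in the median strain to 42.7% in WSB/EiJ, while state 4 ran from 0 in NOD/ShiLtJ to 30.1% in NZO/HlLtJ. The part around the state 3 block was thus alike between strains and the remainder was not. The Proc window also includes bins of the gene Gm5969.

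Plg encodes plasminogen, the precursor of the clot-dissolving protease plasmin. In Plg (chr17:12378609-12419384, 224 bins) states 1 to 3 held 76.8% in C57BL/6J, 83.5% in the median and 87.5% in 129S1/SvImJ. State 2 alone held 55.2% ± 3.79, the highest mean share of state 2 among the members, and state 1 held 22.7% ± 0.887. A state 3 block of 2000 to 2200 bp ended at 12380600 in 9 of 9 strains, and bins chr17:12378601-12380600 were in state 3 in all of them, at the lower-coordinate end of the gene. Its window overlaps the transporter gene Slc22a3.

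State 3 was then compared between the start and the end of each gene, as the share of the 11 bins within 1 kb, by flipping the signs of the 9 strains' differences (exact two-sided permutation, smallest p 0.00391), adjusted over 17273 genes by the Benjamini-Hochberg method. State 3 was higher at the start in 6 of the 8 genes with a listed start, Fga, Fgb, Fgg, F2, F5 and F10, where 42.7% of all genes passed the same test. It was lower at the start in 0 of 8, against 0.955% of all genes. State 3 lay within 1 kb of the start in all 9 strains in the same 6 genes, a property of 41.3% of all genes.

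At Fgb and F2 the share was 54.5% at the start in each of the 9 strains and 0 at the end (adjusted exact p = 0.00988 for each, higher in 9 of 9 strains). At Fgg it was 55.6% ± 3.03 at the start and 13.1% ± 15.8 at the end, a difference of 42.4 percentage points ± 13.6 (SD, n = 9, adjusted exact p = 0.00988). F5 had 38.4% ± 7.58 at the start and F10 24.2% ± 6.43, and neither had state 3 at the end (adjusted exact p = 0.00988 each). Fga, like Fgg, also had state 3 at its end. The share at Fga was 54.5% at the start in every strain against 24.2% ± 20.3 at the end, with 8 of 9 strains higher at the start (adjusted exact p = 0.0279). F7, at 8.08% ± 10.6 at the start and 0 at the end, did not pass (adjusted exact p = 0.264, higher in 4 strains). Serpinc1 did not pass either (3.03% ± 9.09 at the start, 0 at the end, adjusted exact p = 1).

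The agreement between strains was measured as divergence, the percentage of a window's bins whose state differs, averaged over the 36 pairs of strains. The median over the members was 25.2%, from 13.99% in Plg to 36.9% in Proc, against a median of 19.7% and an interquartile range of 10.9% to 28.9% over all protein-coding genes. In order, Plg (13.99%) was followed by Fgb (14.1%), Fga (18.7%), Fgg (20.1%), F10 (25.1%), F7 (25.4%), Serpinc1 (27.0%), F2 (28.6%), F5 (33.0%) and Proc (36.9%). Taken per strain against the other 8, the ranges of every pair of neighbours in this order overlapped, so neighbours are not distinguished. Those of Plg (12.6% to 16.9%) and Proc (31.4% to 44.1%) did not overlap. The order at the low end depended on the padding: without it Fga had 11.5%, the lowest of these genes, and Plg 11.8%, and with 5 kb Fgb (13.5%) lay below Plg (14.7%). At Plg 34.1% of all genes had a lower divergence and at Proc 89.1%. All 9 strains had the same state in 63.8% of the bins of Plg and 64.4% of those of Fga, but in 24.8% of those of F5 and 27.2% of those of Proc.

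The place of the members among all genes turned with the way of counting. With states 1, 2 and 3 merged into 1, the members' median was 12.5%, below the 17.9% of all genes. Fga then had 1.41%, Fgb 2.17% and Fgg 7.04%, so nearly all of the differences in Fga and Fgb were exchanges among these 3 states. F5 kept 28.8%, and in F2 20.5% of bins differed. Among bins outside state 14 in at least 1 strain the members' median was 25.2% and that of all genes 34.5%.

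**Figure D4:**
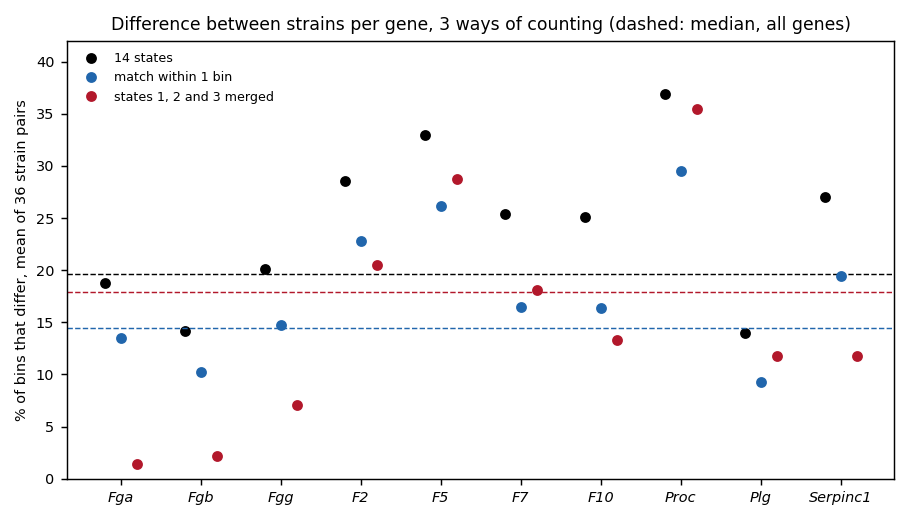
Percentage of bins whose state differs, averaged over 36 strain pairs (y axis), for each gene with 14 states (black), with a match allowed within 1 bin (blue) and with states 1, 2 and 3 merged (red); dashed lines are the medians of all protein-coding genes in the same colours. Merging lowers Fga to 1.41% and Fgb to 2.17% and leaves Proc the highest.

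Of all the disagreement between strains in the members, 27.6% was between states 4 and 14, 21.3% between states 1 and 2, and 16.5% between states 2 and 4. States 2 and 6 accounted for 10.05% and states 1 and 3 for 5.58%. A bin in state 1 in 1 strain had state 1 in another in 88.5% ± 3.83 of cases, against 79.0% ± 3.30 over the autosomal gene windows (SD, n = 9 strains). State 3 recurred in 85.2% ± 8.32 against 78.0% ± 4.66 and state 4 in 66.6% ± 4.43 against 50.7% ± 5.89. State 14 recurred in 63.7% ± 7.59 of cases in the members and 90.9% ± 1.77 over the gene windows, and state 8 in 27.3% ± 12.2 and 58.1% ± 8.24. The recurrence of state 8 rests on 4 to 35 bins per strain. How often a state recurs also depends on how common it is. State 14 held 10.6% of the members' bins, while its median share over all genes was 62.0%. These recurrence values have no test, since bins of 1 gene are not independent.

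Starts and ends of the members differed in this measure in the opposite order to all genes. Within 1 kb of the start the median divergence of the 8 genes was 5.05%, against 17.7% over all genes, and within 1 kb of the end it was 39.9%, against 12.6%. At the start Fga, Fgb and F2 had 0% and Fgg 2.02%. At the end Fga had 55.6%, Fgb 40.2%, Fgg 39.6% and Serpinc1 47.7%. F10 was the exception, with 14.6% at the start and 9.09% at the end. The highest start values were those of Serpinc1 (19.2%) and F7 (16.7%), the 2 genes without state 3 at the start in every strain.

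**Figure D5:**
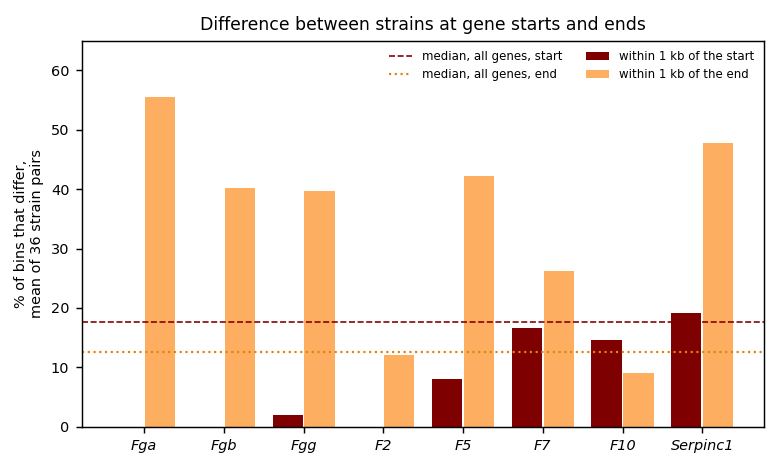
Percentage of bins whose state differs, averaged over 36 strain pairs (y axis, from 0), within 1 kb of the start and within 1 kb of the end of the 8 genes with a listed start, with the medians of all genes as lines. Fga, Fgb and F2 have no bar at the start because the value is 0%, and the end is higher than the start in every gene but F10.

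Among the strains, PWK/PhJ differed most from the others over the members' bins, in 28.5%, and C57BL/6J least, in 24.0%. The mean over strains was 26.0% ± 1.46, against 18.0% ± 1.54 over autosomal gene windows, in which PWK/PhJ was also the highest, at 21.1%. The most alike pair in the members was 129S1/SvImJ and NZO/HlLtJ, differing in 20.1% of bins, and the least alike NZO/HlLtJ and PWK/PhJ, in 34.1%. Bins with a state of 1 strain's own, where the other 8 shared another, numbered 41 in DBA/2J, 40 in PWK/PhJ and 36 in NZO/HlLtJ, and 13 in C57BL/6J, the fewest. Those of DBA/2J lay mainly in F5 (20) and F2 (10), and those of PWK/PhJ in F5 (22) and Fgb (7). NZO/HlLtJ had 11 in F2, 8 in Proc and 7 in Fgg, and NOD/ShiLtJ had 9 of its 19 in F7. These counts were not set beside those of all gene windows, so a strain's rank may not be particular to the members. Counts per gene also depend on window size, and F5 holds 363 of the 1326 bins. No strain was the most divergent throughout: PWK/PhJ was highest at Fgb, F5 and F10, NZO/HlLtJ at Fga, Fgg and Proc, and 4 other strains at 1 gene each.

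The wild-derived strains were compared with the laboratory strains on the share of states 1 to 3 with an exact two-sided permutation test of 3 against 6 strains, which has 84 splits and cannot go below p = 0.0119. None of the 10 genes passed, with exact p from 0.155 (Fgb) to 1 (Proc) and adjusted p of 1 over 21627 genes. Over all genes 0 passed at an adjusted p of 0.05 and 1004, or 4.64%, had an unadjusted p below it. With 84 splits a gene can pass the adjustment only if a large share of all genes reach the smallest p. The adjusted result was thus nearly fixed in advance. The largest difference was at F2, 44.1% ± 5.99 in wild-derived strains (n = 3) and 48.1% ± 5.94 in laboratory strains (n = 6), a gap smaller than the SD within each group. Groups overlapped in all 10 genes, where 0.777% of all genes had wild-derived strains above and 1.11% below without overlap, 1.88% in all. That share of all genes was 7.50% without WSB/EiJ, 4.03% without PWK/PhJ, 3.93% without CAST/EiJ and 2.88% without 129S1/SvImJ, and 3.32% when all states outside 14 were counted, with 0 of the 10 genes in each case. With a strain left out fewer splits remain, and smaller groups fail to overlap more easily by their size alone. The shares without a strain can therefore not be read against the 1.88%. State 1 taken alone separated the groups at Fgb: it held 50.8% to 69.5% of bins in wild-derived and 74.6% to 83.1% in laboratory strains (means 63.3% and 80.8%, exact p = 0.0119, adjusted p = 0.751). With that setting 2.35% of all genes had groups without overlap.

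The other genes of the system were read from a pair of lists, both written with earlier results of these data known. A list of 20 further genes was written from general knowledge. Their products are taken as mostly made by hepatocytes or as serving the making of clotting factors there. Whether each is expressed in mouse liver was not analysed here. Of these genes, 17 had state 3 in the window in all 9 strains, beside the 45.1% of all genes. Their median share of states 1 to 3 was 46.9% (0.312% to 98.8%), and 7 had more than 50% in all strains, beside 5.38% of all genes. Of 17 with a listed start, 13 had state 3 there in all strains (41.3% of all genes) and 13 passed the test for more state 3 at the start than at the end (42.7% of all genes). The 4 without were F9, factor IX, with state 3 at the start in 1 strain; F11, factor XI, in 6; Cpb2, an inhibitor of clot breakdown, in 5; and Serpina5, the protein C inhibitor, in 0. F9, which is on chromosome X, had 0.312% ± 0.936 of its bins in states 1 to 3, 36.4% in state 5 and 34.3% ± 8.70 in state 13, states that are at 0 in all members. Divergence in this list was highest in Lman1 (38.0%) and Mcfd2 (36.8%), which carry factors V and VIII out of the endoplasmic reticulum, and in Serpina5 (36.8%). It was lowest in Serpind1, heparin cofactor II (11.8%), in F13b, the B chain of factor XIII (15.4%), and in Serpinf2, the plasmin inhibitor (17.4%).

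Of 15 genes of the system known mainly from vessel wall, platelets or other cells, 1 had state 3 in the window in all 9 strains, beside 45.1% of all genes. Some strains had it in the windows of Itga2b (8 strains), Gp1ba (5) and Tfpi (4). The 1 gene was F3, which encodes tissue factor and had 28.6% ± 1.91 of bins in states 1 to 3. F3 was also the only 1 of the 9 with a listed start that had state 3 there in all strains, beside 41.3% of all genes. The list's median share of states 1 to 3 was 0%, against 5.14% over all genes. That of state 14 was 68.5%, near the 62.0% of all genes. No state 13 was found in any strain in 3 of the 15, beside 51.3% of all genes. F8, factor VIII, had 89.2% ± 1.74 in state 13 and a divergence of 3.94%. It is on chromosome X, as is F9, and the part of the chromosome in these values was not tested. F13a1, the A chain of factor XIII, had 98.0% in state 14 and a divergence of 1.28%, and Pf4, a platelet chemokine, 96.4% and 7.11%. Thrombomodulin, Thbd, was the most divergent of the list at 38.5%, ahead of the platelet receptor chain Gp1ba (36.3%) and of Procr, the protein C receptor (28.9%). Thbd and Procr had 0% of bins in states 1 to 3 in every strain.

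Finally, the protein-coding genes most alike to each member were found by the mean absolute difference of the 14 state shares over the 9 strains. Pim3 was nearest to Fga (0.957 percentage points) and to Fgg (1.49), followed by Pnrc1 for Fga (1.21) and Mettl7b for Fgg (1.51). Cyp2d26 (1.07) and the bile acid transporter gene Slc10a1 (1.13) were nearest to Fgb. For Plg they were Wbp1l (1.63) and Prox1 (1.72), for Serpinc1 Sec14l2 (1.61) and the catalase gene Cat (1.67), for F10 Slc6a13 (1.35) and Slc39a14 (1.36), and for F7 Agmat (1.73) and Cbs (1.94). F5 was nearest to Ttc7 (1.64) and Rcbtb1 (1.88), F2 to Lnx2 (2.33) and Trim14 (2.38), and Proc to Wsb1 (2.55) and Acbd5 (2.58), the least close matches of the 10. The median difference over all genes was 9.06 points for Proc and 13.6 points for Fga and Fgb.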

How the data were processed

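ChIP-seq libraries of hepatocytes from 9 strains were combined by the authors into 1 chromatin state segmentation per strain. Per the file headers, each deposited file belongs to 1 strain. Its column 4 holds the state number, a label and neither a count nor a score. The submitters' processing notes name FastQC 0.11.5, MACS 1.4.2 and the build mm10, the UCSC name of GRCm38. The aligner, the segmentation tool and the depth are not given in the sources used here. A file joining all strains was identical to the strain files and was not used.

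The intervals were written as 200-bp bins. Gene spans came from a RefSeq table, and strand, start and promoter sequence from a RefSeq promoter table that covers 17273 of 21627 protein-coding genes. The outermost listed start was used. Proc and Plg are named without strand. Windows, tests and adjustment are given with each result. The exact tests were computed in Python 3.11.15 with numpy 2.4.6 and pandas 2.3.3, figures with matplotlib 3.10.9, and the code was tested on simulated data. The strains are partly related, and p-values measure spread between these segmentations.

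The members and the lists were chosen with earlier results of these data known. Named besides the members are the 3 most and 3 least divergent genes of each list, genes that depart from their list's majority in state 3 at the start, the 2 genes most alike to each member, and genes that share bins with a member. Alternatives were padding, window, state merging, single-bin segments, background and each strain left out.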

Additional observations from a re-analysis of the deposited data

Results flagged for a closer look

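Values of 1 strain that stand far from the other 8 were looked for with Dixon's test at its 95% limit in 21 sets, and 5 were found. For independent, normal values about 1 in 20 sets, or 1.05, would pass the limit. Here shares stop at 100%, divergences share strain pairs and a gene enters more than 1 set. The 5 can therefore not be read against 1.05. Fga had 96.6% of its bins in states 1 to 3 in WSB/EiJ and 98.3% to 100% in the others, a gap of 1 bin. Fgb had 93.2% in CAST/EiJ and 98.3% to 100% in the others. Fgb in PWK/PhJ differed from the other strains in 30.1% of bins, where the other strains' values were 9.53% to 18.0%. Fgg in NZO/HlLtJ differed in 34.5% of bins, against 15.3% to 19.8%. F7 in NOD/ShiLtJ differed in 43.3%, against 19.2% to 27.1%, and this is the strain in which state 9 held 28.8% of the F7 window. The depth of each segmentation is unknown, and its part in these values was not tested.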

How the results depend on the processing

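Start and end were compared within each strain. No paired analysis was possible because nothing pairs a wild-derived with a laboratory strain, and 1 segmentation joins the mice of a strain. With 5 kb of padding the members' median share of states 1 to 3 was 75.1% and that of the vessel and platelet list 0.644%. Leaving out each strain in turn gave 80.1% to 81.6% for the members. State 1 taken alone left 1 member, Fgb, whose wild-derived and laboratory strains did not overlap, and 0 were found under every other setting. The median divergence of the members was 16.4% with a match allowed within 1 bin (all genes 14.4%) and 12.5% with states 1, 2 and 3 merged (all genes 17.9%). Without NOD/ShiLtJ it was 22.1%, and leaving out each strain in turn gave 22.1% to 26.8% (all genes 18.6% to 20.1%). The median of all genes was 12.2% with states 13 and 14 merged, 34.5% among bins outside state 14 in at least 1 strain and 17.5% over genes of all kinds. The start minus end difference of F7 turned to -1.06 percentage points with a 2 kb window (adjusted exact p = 1). At the F7 end this wider window takes in chr8:13037801-13038000, the bin of the F10 block in state 3 in all strains. The 1 kb window does not reach that bin and had 0 state 3 at the F7 end. The part of the bin in the change of sign was not tested. The 6 genes higher in state 3 at the start numbered 6 when any strain was left out. Of the other values, 184 of single genes or all genes were counted as the same and 33 as moved. Values counted as the same did not all keep their size within the spread. At F2 the start minus end difference was 54.5 percentage points in each strain with the 1 kb window. It was 37.0 points on average with the 2 kb window, with the same sign, and was counted as the same. The unknown depth limits how far a single bin can be read.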
